A study of Mus musculus with 12 samples.

Results

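The genes described here are 7 genes by which B lymphocytes are recognised, Cd79a, Cd79b, Ms4a1, Pax5, Cd22, Blk and Ebf1, followed through RNA of CD11c-enriched lymph node cells. They were chosen by name, as genes of B cell identity and not by a rule on their values, and all 7 have a row among the 24499 gene symbols of the count table. Mice that were wildtype (C57BL6) or APOE-KO, which lack apolipoprotein E, received injections of E0771-cOC tumours (E0771 is a mouse mammary carcinoma line; the labels do not explain the suffix), and the tumour-draining nodes were taken on day 9. Node cells, freed with collagenase I/IV and DNAse I, were enriched on magnetic beads against CD11c, the integrin chain encoded by Itgax, and libraries were made from transcript 3' ends. There were 12 libraries, 6 of each genotype, all from tumour-bearing mice, so both groups share the tumour and no tumour-free group enters. The sources used here do not give the age of the mice, how the Apoe allele was made or whether each library is a separate animal. The p-values therefore measure only how far these libraries scatter, which may be technical.

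B cells recognise antigen through a membrane immunoglobulin that signals through the CD79A and CD79B chains, whose cytoplasmic tails are phosphorylated by kinases of the Src family such as BLK. CD22 is a sialic acid binding co-receptor that dampens this signal, and CD20, encoded by Ms4a1, is a membrane protein of mature B cells. EBF1 and PAX5 are the transcription factors that set up and hold the B lineage, and Cd79a is a classical target gene of both. B cells fill the follicles of a lymph node. Bead enrichment for CD11c is meant to favour dendritic cells, so RNA of B cell genes in such a preparation is read here as a level relative to dendritic cell genes. Some members are not exclusive to B cells: Ebf1 is also transcribed in stromal and perivascular cells, and Blk in plasmacytoid dendritic cells.

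The members lie on 5 chromosomes of GRCm38 (mm10; GENCODE vM21) and are all protein-coding. Cd79a is at chr7:24897381-24902197 on the plus strand and Cd22 at chr7:30865402-30880342 on the minus strand. Cd79b is at chr11:106311341-106314762 on the minus strand and Ebf1 at chr11:44617317-45008091 on the plus strand. Ms4a1 is at chr19:11249675-11266241, Pax5 at chr4:44524757-44710487 and Blk at chr14:63372836-63417037, each on the minus strand. Cd79a and Cd22 share chromosome 7 with Apoe, at distances of 5.2 and 11.2 megabases. Of the 121 tested genes between Apoe and Cd22, 3 passed the test between the genotypes, all 3 higher in APOE-KO (2.48%). Cd79a, Cd79b and Blk overlap no other annotated gene, while Ms4a1, Cd22 and Ebf1 each overlap 1 annotated on the other strand and Pax5 overlaps 3 on the other strand and 1 on its own.

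Promoter windows (250 bases before to 50 after a transcription start, RefSeq, GRCm38.p6) were available for 4 members: Cd79a, Cd22, Pax5 and Ebf1, the last with 2 starts. Cd79a, Cd22 and Ebf1 are shown because Cd79a and Ebf1 were the pair of members that varied most alike between libraries and Cd22 had the largest fitted fold of the 6 tested members, though it did not pass the test. Capitals mark matches, on either strand, to the palindromic binding motif of EBF1, to CAGGTG (bound by E2A) or to GAGGAA (1 form of Ets family site, such as that of PU.1). The octamer ATGCAAAT was searched too and was in none of the 5 windows. The matches do not overlap each other.
Cd79a, chr7:24897247-24897546, plus strand: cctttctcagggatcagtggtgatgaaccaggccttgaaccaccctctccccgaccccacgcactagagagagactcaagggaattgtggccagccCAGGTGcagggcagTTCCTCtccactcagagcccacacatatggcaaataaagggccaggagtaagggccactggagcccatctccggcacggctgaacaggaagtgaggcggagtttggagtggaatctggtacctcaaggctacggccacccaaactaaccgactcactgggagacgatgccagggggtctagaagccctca
Cd22, chr7:30878979-30879278, minus strand: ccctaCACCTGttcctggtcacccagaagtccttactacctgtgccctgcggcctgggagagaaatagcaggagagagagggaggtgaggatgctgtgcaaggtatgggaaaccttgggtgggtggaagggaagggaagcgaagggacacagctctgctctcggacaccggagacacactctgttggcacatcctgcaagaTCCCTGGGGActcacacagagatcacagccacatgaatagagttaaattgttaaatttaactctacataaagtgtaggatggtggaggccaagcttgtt
Ebf1, chr11:44619978-44620277, plus strand: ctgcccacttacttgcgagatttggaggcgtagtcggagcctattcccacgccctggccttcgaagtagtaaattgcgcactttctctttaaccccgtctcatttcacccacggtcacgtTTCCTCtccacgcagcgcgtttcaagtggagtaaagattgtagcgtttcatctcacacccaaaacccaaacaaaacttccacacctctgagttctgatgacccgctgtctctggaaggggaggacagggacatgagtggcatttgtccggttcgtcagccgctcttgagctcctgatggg
The EBF1 motif was matched in the Cd22 window alone among the 5, as TCCCTGGGGA beginning 49 bases before the start, and 0.904% of all 32851 promoter windows held a match. CAGGTG was in the Cd79a and Cd22 windows (20.2% of all windows), and GAGGAA in those of Cd79a and of the Ebf1 start shown (28.3%). The windows of Pax5 and of the other Ebf1 start held no match to these letters. The octamer is in 1.74% of all windows. Only full matches to the searched letters were counted, so a binding site with other letters would be missed. The lack of a match in the Cd79a window therefore does not show that it lacks an EBF1 site.

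The libraries held 2381477 to 4898360 counts. At that depth 3 counts in a library, the limit that a count of 0 allows, stand for 0.525 to 1.59 CPM (counts scaled to a common library size, with TMM factors). Apoe checked the labels, with 838 to 2919 reads in each wildtype library and 13 to 30 in each APOE-KO library. The ribosomal RNA gene Rn45s took 2.71% to 32.2% of a library. Wildtype library 3 had both the highest total and the lowest Rn45s share. In principal components of log2 CPM over the tested genes, wildtype libraries 1 and 3 and APOE-KO library 5 stood apart from the rest: 1 and 5 lay at the ends of the first component, and 3 was lowest on the second. Intervals and floors cover counting error only.

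No B cell identity gene passed the test between the genotypes. Cd22 and Ms4a1 had lower mean levels in APOE-KO, by 1.35-fold and 1.34-fold, and Cd79a and Blk had higher ones, but groups overlapped for all 7. Of 10714 genes tested with edgeR's quasi-likelihood test, 1.49% passed an adjusted p of 0.05 (Benjamini-Hochberg over all tested genes), 1.08% higher and 0.411% lower in APOE-KO, and in 1.77% the groups did not overlap. Of the 6 members that passed the filter on low counts, 0 did so. At an unadjusted p of 0.05 the count was 2 of 6, Cd22 and Ms4a1, both lower, against 12.1% of all tested genes in either direction and 5.81% lower. DESeq2 and limma-voom, which called 2.77% and 1.56% of all tested genes, also gave 0 of 6 members at the adjusted threshold and 2 of 6 at the unadjusted one. The median log2 fold change of the 6 members was -0.11, against -0.02 over all tested genes. In these bulk samples fewer B cells and less RNA per B cell cannot be told apart.

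**Figure D1:**
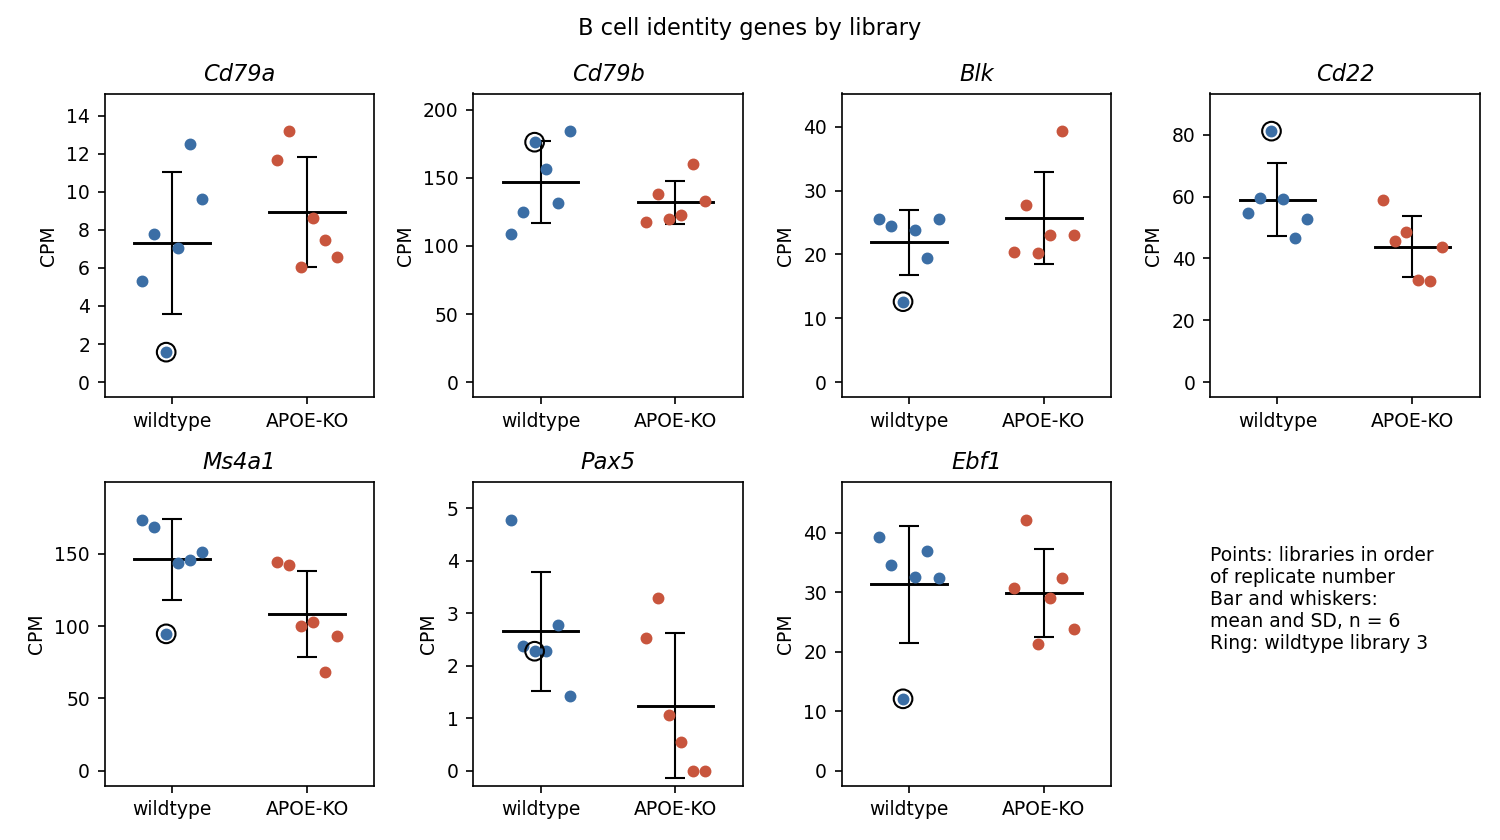
Level of each member in CPM (linear axis) in the 12 libraries, by genotype, with points for libraries and a bar and whiskers for the mean and SD (n = 6). Groups overlap for all 7 genes, and the ringed wildtype library 3 is the lowest of the 12 for Cd79a, Blk and Ebf1 and the highest for Cd22.

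Neither gene of the 2 signalling chains of the receptor passed the test, and whether their fold changes differ was not tested. Cd79a was thinly covered, with 9 to 45 reads in a wildtype library and 17 to 51 in an APOE-KO library. Its level was 1.57 CPM at the lowest, 7.43 at the median and 12.5 at the highest in wildtype, and 6.05, 8.03 and 13.2 CPM in APOE-KO. The groups overlapped through most of their range, and the lowest value, in wildtype library 3, rested on 9 reads (95% exact Poisson interval 0.72 to 2.99 CPM). The log2 fold change of Cd79a was 0.29 ± 0.42 (SE), with a 95% interval from -0.64 to 1.22, and edgeR's adjusted p was 0.854. Cd79b, which encodes the partner chain, ran from 109 to 184 CPM in wildtype (median 144) and from 117 to 160 CPM in APOE-KO (median 128). Every APOE-KO value of Cd79b lay inside the wildtype range. Its log2 fold change was -0.16 ± 0.14 (SE; adjusted p = 0.737, edgeR), and the 95% interval of the fold, on 10 residual degrees of freedom, ran from 0.717 to 1.12. Levels of different genes are not ranked here, since a 3' library counts reads near transcript ends with an annotation not given in the sources used here.

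Blk, the Src family kinase of the receptor, had 12.6 CPM at the lowest, 24.2 at the median and 25.5 at the highest in wildtype. In APOE-KO it had 20.3, 23.1 and 39.3 CPM. The medians stood close together, and the ends of the ranges were set by wildtype library 3 on the low side and APOE-KO library 5 on the high side. The log2 fold change of Blk was 0.24 ± 0.23 (SE; adjusted p = 0.762, edgeR), and without APOE-KO library 5 it was 0.08.

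Cd22, the inhibitory co-receptor, ran from 46.7 to 81.2 CPM in wildtype (median 56.9) and from 32.8 to 58.8 CPM in APOE-KO (median 44.6). Among APOE-KO libraries, 4 and 5 had the lowest values and library 1 alone lay above the wildtype median. Mean levels of Cd22 were 59.0 ± 11.8 and 43.7 ± 9.86 CPM (SD, n = 6 each; log2 fold change -0.44 ± 0.18 SE, unadjusted p = 0.0226 and adjusted p = 0.308 in edgeR's quasi-likelihood test). Without wildtype library 3, which held the highest value of all 12, the log2 fold change was -0.31 (adjusted p = 0.448). Leaving out 1 library at a time, the adjusted p of Cd22 lay between 0.204 and 0.497.

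Ms4a1, which encodes CD20, ran from 94.6 to 174 CPM in wildtype (median 148) and from 68.4 to 144 CPM in APOE-KO (median 101). APOE-KO libraries 1 and 2 lay at 144 and 142 CPM, near the middle of the wildtype values, the other 4 lay between 68.4 and 103 CPM, and wildtype library 3 lay among these. Mean levels of Ms4a1 were 146 ± 28.1 and 109 ± 29.6 CPM (SD, n = 6 each), a log2 fold change of -0.43 ± 0.17 (SE; unadjusted p = 0.0227 and adjusted p = 0.309, edgeR). The log2 fold change was -0.52 without APOE-KO library 1 and -0.32 without APOE-KO library 5, and the adjusted p ranged from 0.0913 to 0.509 over the fits without 1 library.

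The lineage factors were read at low depth. Ebf1 ran from 12.1 to 39.3 CPM in wildtype (median 33.6) and from 21.4 to 42.2 CPM in APOE-KO (median 29.9). Apart from wildtype library 3, whose 69 reads gave 12.1 CPM (95% exact Poisson interval 9.39 to 15.3), the wildtype values of Ebf1 began at 32.3 CPM. Its log2 fold change was -0.06 ± 0.24 (SE; adjusted p = 0.966, edgeR), with a 95% interval from -0.60 to 0.49. Without wildtype library 3 it was -0.22 (adjusted p = 0.682). Pax5 had 5 to 13 reads in each wildtype library and 11, 10, 3, 2, 0 and 0 in APOE-KO libraries 1 to 6. Wildtype levels of Pax5 were 1.42 to 4.78 CPM, against 3.30 CPM at most in APOE-KO, and the counts of 0 in APOE-KO libraries 5 and 6 allow up to 0.746 and 0.636 CPM. Pax5 did not pass the filter on low counts. A fit over the 16926 genes with any count gave it a log2 fold change of -1.07 ± 0.94 (SE; unadjusted p = 0.26 and adjusted p = 0.634, edgeR), so a difference was not detectable at this depth.

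Summed over the 7 members, B cell identity genes took 380 to 457 CPM in wildtype (median 417) and 317 to 413 CPM in APOE-KO (median 332). APOE-KO libraries 1 and 2 lay within the wildtype range and the other 4 below it. The mean log2 sum was 8.70 ± 0.09 in wildtype, against 8.44 ± 0.16 in APOE-KO (SD, n = 6 each), a difference of -0.25. Cd79b and Ms4a1 gave most of the sum, with mean shares of 35.5% and 35.1% in wildtype and 38.1% and 30.8% in APOE-KO. No p is given for a sum over chosen genes.

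The dendritic reference was the sum of 11 genes of conventional dendritic cells: Itgax, Flt3, Zbtb46, Clec9a, Xcr1, Wdfy4, Batf3, Cd209a, Clec10a, Sirpa and Kmo. It ran from 1629 to 2064 CPM in wildtype and from 1674 to 2033 CPM in APOE-KO. The B cell identity genes amounted to 18.4% to 25.9% of that reference in wildtype (median 22.4%) and to 16.7% to 23.2% in APOE-KO (median 19.0%). Both ranges cover most of the same span, with wildtype library 3 at the lower end of its group and APOE-KO library 2 at the upper end of its own. The mean log2 ratio was -2.16 ± 0.16 in wildtype, against -2.37 ± 0.16 in APOE-KO (SD, n = 6 each), and the difference of -0.20 was little larger than 1 SD of either group. Against Itgax alone, the bead target (log2 fold change 0.10 ± 0.14 SE, adjusted p = 0.841, edgeR), the difference in the log2 ratio was -0.37. Against the list of mature dendritic cell genes it was -0.93. Taking the mean of log2 CPM over genes in place of the sum, it was -0.13. In that list 6 of 9 tested genes rose in APOE-KO, among them Ccr7 (1.55-fold, adjusted p = 0.00444, edgeR), so the denominator moved with genotype. The reference itself is not fixed either: Clec10a, a lectin of dendritic cells and macrophages, fell 1.84-fold (adjusted p = 0.00345, edgeR) and Sirpa, a receptor for CD47, rose by 0.48 on the log2 scale (adjusted p = 0.0382, edgeR).

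**Figure D2:**
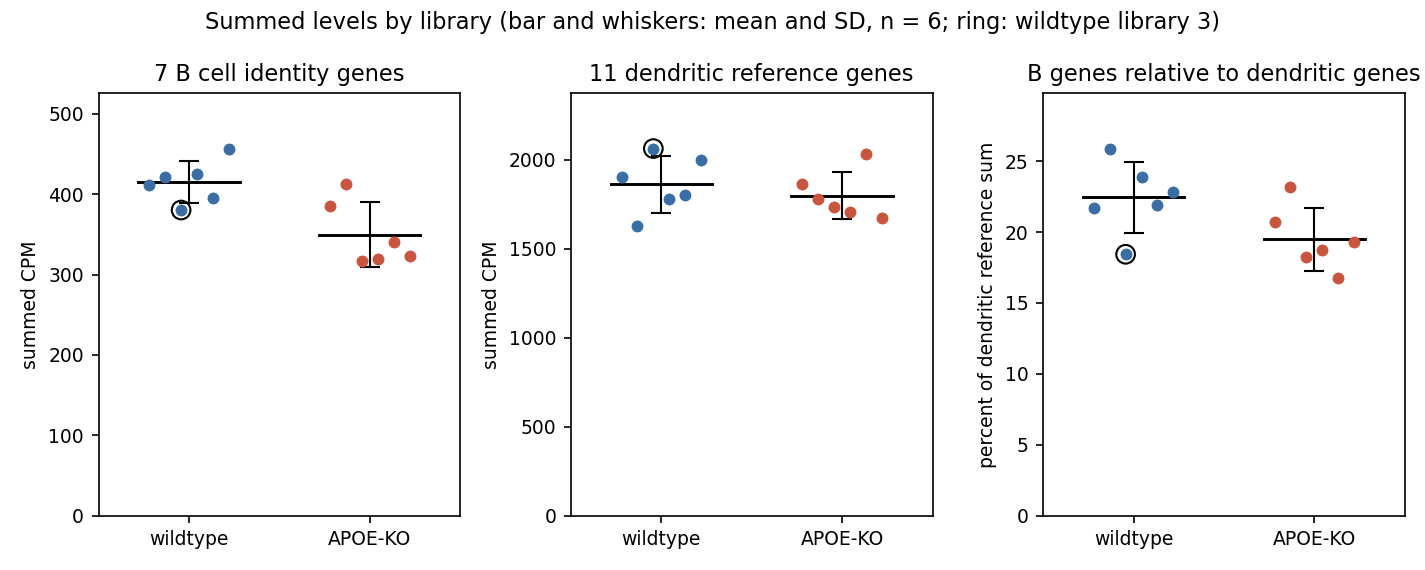
Summed CPM of the 7 B cell identity genes, summed CPM of the 11 dendritic reference genes, and the first as a percentage of the second, in the 12 libraries by genotype (points: libraries; bar and whiskers: mean and SD, n = 6; ring: wildtype library 3). The percentage runs from 18.4 to 25.9 in wildtype and from 16.7 to 23.2 in APOE-KO.

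Over all 12 libraries the members did not rise and fall together. With log2 CPM centred within each genotype, the 15 pairs of the 6 tested members had a mean Pearson r of 0.06 over the 12 libraries, from -0.67 to 0.87, with 8 pairs positive and 7 negative. These correlations are descriptions over 12 libraries that share scaling and differ in depth, with no test. Cd79a and Ebf1 were the most alike (r = 0.87, Spearman rho 0.65; r = 0.62 without the 2 libraries farthest from the median of Cd79a). Blk and Ebf1 followed (r = 0.75, rho 0.59; 0.64 without the 2 farthest on Blk), then Cd79a and Ms4a1 (r = 0.67, rho 0.66; 0.60 without the 2 farthest on Cd79a) and Ms4a1 and Ebf1 (r = 0.65, rho 0.58; 0.67 without the 2 farthest on Ms4a1). Cd22 and Blk varied in opposite directions (r = -0.67, rho -0.66; -0.33 without the 2 farthest on Cd22). Cd22 also had a negative r with Ebf1 (-0.54, rho -0.36; -0.24 without the 2 farthest on Cd22) and with Cd79a (-0.44, rho -0.26), the latter 0.22 without the 2 farthest on Cd79a. Partners of 1 receptor complex, Cd79a and Cd79b, had r = -0.22 (rho -0.06), but 0.30 without the 2 farthest on Cd79a and 0.20 without wildtype library 3. Cd79b and Ms4a1, which gave most of the summed level, varied in opposite directions (r = -0.59, rho -0.52, and -0.71 without the 2 farthest on Cd79b).

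Several of these correlations, though not all, rested on wildtype library 3. It was the lowest of the 12 libraries for Cd79a, Ebf1 and Blk, the third lowest for Ms4a1, the second highest for Cd79b and the highest for Cd22. Without it the Pearson r over 11 libraries fell to 0.54 for Cd79a and Ebf1 and to 0.45 for Blk and Ebf1, and turned from 0.50 to -0.17 for Cd79a and Blk. The r of Cd22 went to -0.15 with Ebf1 and to 0.02 with Cd79a. Cd22 and Blk (r = -0.45) and Cd79b and Ms4a1 (r = -0.49) stayed opposed over these 11 libraries. Cd22 and Ms4a1 became the most alike pair (r = 0.67, from 0.14). The mean over the 15 pairs was 0.08 without that library, from -0.49 to 0.67. Without wildtype libraries 1 and 3 and APOE-KO library 5, the 3 that stood apart, it was 0.27, with 10 of 15 pairs positive. In that setting 5 pairs were over 0.5 and 0 under -0.5. There r was -0.07 for Cd22 and Blk and -0.09 for Cd79b and Ms4a1, so neither pair stayed opposed. It was 0.85 for Cd79a and Ebf1, 0.76 for Ms4a1 and Ebf1 and 0.71 for Cd79a and Ms4a1. Depth moved with several members: with the log2 library total, centred within genotype, r was 0.68 for Cd79b, -0.64 for Ebf1 and -0.56 for Ms4a1, and with the Rn45s share it was -0.61, 0.55 and 0.51 in the same order. Their part in the pattern was not tested.

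**Figure D3:**
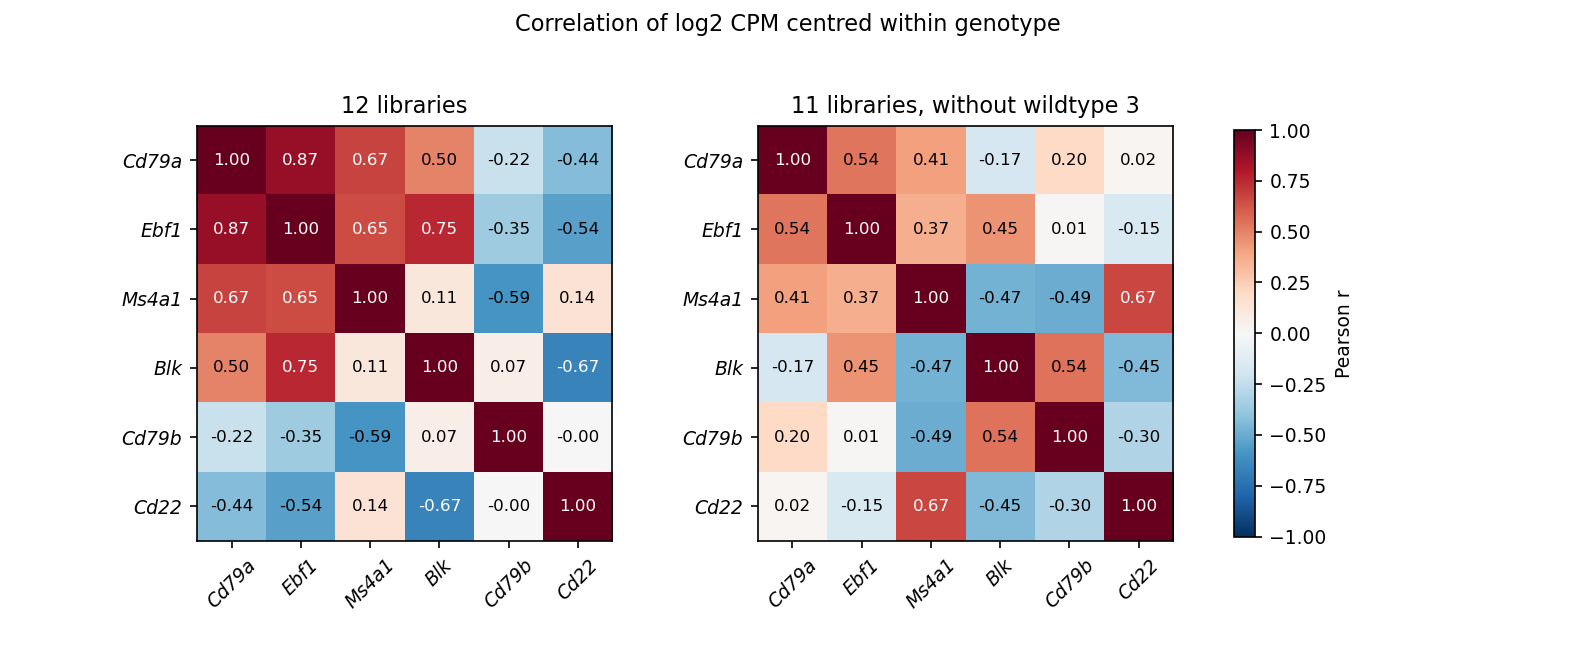
Pearson r between log2 CPM of the 6 tested members, centred within genotype, over 12 libraries (left) and over 11 without wildtype library 3 (right), from blue (-1) to red (1). Cd79a and Ebf1 stand at 0.87 on the left and 0.54 on the right, and Cd22 and Ms4a1 at 0.14 and 0.67.

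Among 10341 other tested genes with full names, those most like the members, by mean Pearson r with the 6 tested members over 12 libraries, reached 0.40 to 0.42. They were Serpina1e, Iqce, Sele, Nup50, Tmem206, Supt5, E2f2, Rnf125, Hdac4 and Ppargc1b. None of the 10 is on a B cell list used here. Their likeness was to Cd79a (r from 0.64 to 0.89), Ebf1 (0.70 to 0.92) and Ms4a1 (0.51 to 0.87), and to Blk over a wider range (0.32 to 0.79, over 0.5 for 7 of the 10). With Cd22 it ran from -0.40 to 0.04 and with Cd79b from -0.28 to 0.06. None of them passed the test between the genotypes (adjusted p of at least 0.227, edgeR).

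Other genes of the receptor pathway did not pass the test. Of 22 tested genes of B cell receptor signalling, 0 passed in either direction with edgeR, DESeq2 or limma-voom (0, 1 and 1 at an unadjusted p under 0.05), and their median log2 fold change was -0.07. Cr2, a complement receptor of B cells, had 255 ± 56.6 CPM in wildtype, against 249 ± 36.8 CPM in APOE-KO (SD, n = 6 each; log2 fold change -0.03 ± 0.14 SE, adjusted p = 0.968, edgeR). The kinases Lyn, Syk and Btk and the adaptor Blnk had fold sizes of 1.01 to 1.13 and adjusted p from 0.766 to 0.982. The smallest p in the list was that of Prkcb, a protein kinase C downstream of the receptor, at 414 ± 46.6 and 350 ± 50.3 CPM (adjusted p = 0.442). Several of these genes, such as Lyn, Syk and Prkcb, are also expressed by myeloid cells.

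Some genes of the other B lineage lists passed. Over 8 such lists, 4 of 88 tested genes passed (4.55%, beside the 1.49% of all tested genes), 3 lower and 1 higher in APOE-KO, and 60 of the 88 had a negative log2 fold change, beside 5652 of the 10714 tested genes. Among 16 B lineage transcription factors, 9 had an unadjusted p under 0.05 with each of edgeR, DESeq2 and limma-voom, against 12.1% of all tested genes with edgeR, and with edgeR 8 of these were lower and 1 higher. Not all of the 16 are exclusive to B cells, and the part of other cells in these counts was not tested. At the adjusted threshold 1 fell (2 with DESeq2), Bcl11a, a zinc finger factor that B cells and plasmacytoid dendritic cells need, from 330 ± 57.7 to 225 ± 36.9 CPM (SD, n = 6 each; log2 fold change -0.55 ± 0.14 SE, adjusted p = 0.0435). Among 20 surface and homing genes 7 had an unadjusted p under 0.05 with each tool, 5 lower and 2 higher with edgeR, and 2 fell at the adjusted threshold (4 genes passed with DESeq2 and 0 with limma-voom). Fcer2a, the low-affinity IgE receptor CD23 of follicular B cells, went from 136 ± 39.8 to 84.2 ± 15.7 CPM (log2 fold change -0.69 ± 0.18 SE, adjusted p = 0.047). Ralgps2, a guanine nucleotide exchange factor, went from 216 ± 56.4 to 134 ± 33.3 CPM (log2 fold change -0.69 ± 0.18 SE, adjusted p = 0.0454). Groups overlapped for all 3.

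These 3 calls stood close to the threshold. Leaving out 1 library at a time, Bcl11a passed in 3 of 12 fits, those without wildtype 3, wildtype 4 and APOE-KO 2 (highest adjusted p 0.140). Fcer2a passed in 4 of 12, those without wildtype 3, 4 and 6 and APOE-KO 5 (highest 0.143). Ralgps2 passed in 4 of 12, those without wildtype 3, 4 and 6 and APOE-KO 1 (highest 0.136). With limma-voom Fcer2a and Ralgps2 did not pass, and without the 3 libraries that stood apart Bcl11a and Fcer2a did not. With a replicate block Bcl11a and Ralgps2 did not pass, though the replicate numbers gave no sign of pairing. Mef2c and Ly6d, next in p within these lists, had 446 ± 126 and 294 ± 50.1 CPM (adjusted p = 0.0537) and 207 ± 50.3 and 146 ± 15.7 CPM (adjusted p = 0.1001), and Pou2f2 had 158 ± 46.6 and 109 ± 10.9 CPM (adjusted p = 0.137). Bcl11a, Mef2c and Ly6d are transcribed in plasmacytoid dendritic cells too. In the plasmacytoid list 4 of 10 tested genes fell (Siglech, Klk1, Runx2 and Cox6a2) and all 10 had a negative log2 fold change (7 passed with DESeq2 and 3 with limma-voom). Its summed level ran from 1237 to 2839 CPM in wildtype (median 1501), and from 985 to 1312 CPM in APOE-KO (median 1142), with none of its genes at 0 in any library. Its part in the lower B lineage genes was not tested.

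**Figure D4:**
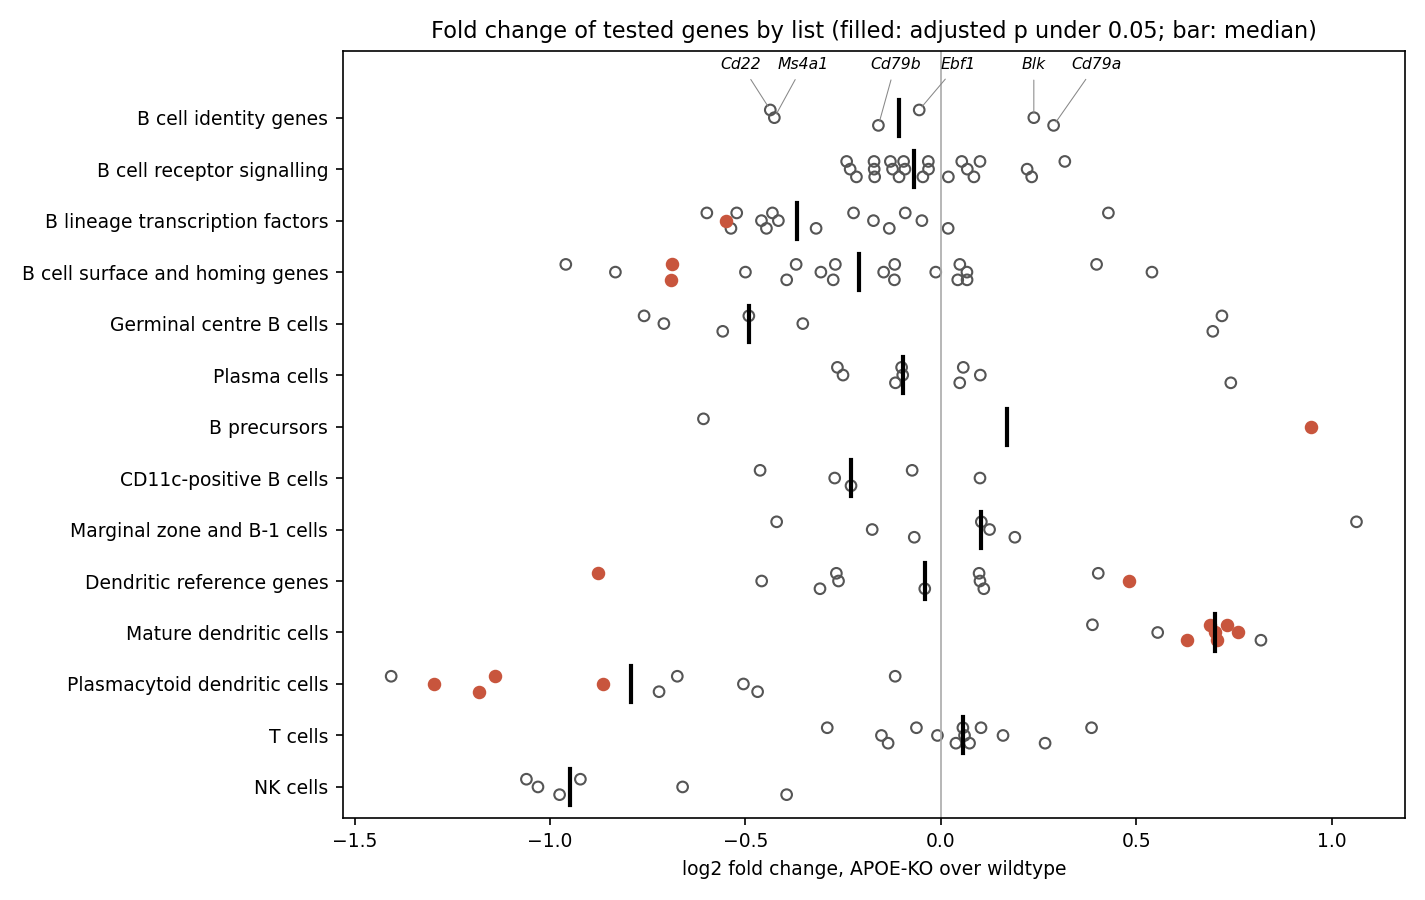
Log2 fold change of APOE-KO over wildtype for each tested gene, by list (filled points: adjusted p under 0.05 in edgeR; open points: not; black bar: median of the list). The 6 B cell identity genes lie between -0.44 and 0.29, all open, while the plasmacytoid list has 4 filled points below 0 and the mature dendritic list 6 above.

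Genes of later and earlier B cell stages were tested next. None of 7 tested germinal centre genes passed with edgeR, DESeq2 or limma-voom (3 at an unadjusted p under 0.05 with each). Fas, the death receptor, had the opposite sign to the next pair, at 29.5 ± 10.9 CPM in wildtype against 48.9 ± 20.7 CPM (adjusted p = 0.242). Bcl6, the germinal centre repressor, had 87.1 ± 17.2 and 68.4 ± 12.6 CPM (adjusted p = 0.368), and Gcsam 39.5 ± 9.82 and 26.9 ± 5.62 CPM (adjusted p = 0.224), all SD with n = 6 each. Of 9 tested plasma cell genes 0 passed with edgeR, DESeq2 or limma-voom (0, 1 and 0 at an unadjusted p under 0.05). Jchain, which joins secreted IgM and IgA, varied widely within both groups, from 37.7 to 111 CPM in wildtype and from 25.6 to 153 CPM in APOE-KO. Among precursor genes, of which 2 were tested, Cd93 rose, from 23.4 ± 6.54 to 44.7 ± 8.65 CPM (log2 fold change 0.95 ± 0.21 SE, adjusted p = 0.0182), with groups that did not overlap. Dntt, the other tested gene of that list, went the opposite way without passing (edgeR's adjusted p was 0.558). Its mean level was 15.4 CPM in wildtype, against 9.88 CPM in APOE-KO. Cd93 is also a gene of myeloid and endothelial cells, and Rag1, Rag2, Vpreb1 and Igll1, which define B precursors, each had a count of 0 in at least 1 library and were not tested. Without wildtype library 6, and with a replicate block, Cd93 did not pass (adjusted p = 0.0556 and 0.0551, edgeR), though the replicate numbers gave no sign of pairing.

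Genes of CD11c-positive (age-associated) B cells, a subset that the beads could hold, did not pass either: 0 of 5 tested genes with edgeR, DESeq2 or limma-voom (0 at an unadjusted p under 0.05 with each). The 5 were Tbx21, Zeb2, Cxcr3, Itgam and Itgax, and Fcrl5 was not tested. Itgax is also the bead target and a gene of the dendritic reference, so the list does not single out this subset. Tbx21, the defining transcription factor of these B cells, had 23.6 ± 10.1 and 19.6 ± 7.72 CPM (SD, n = 6 each; adjusted p = 0.797), and T and NK cells transcribe it as well. Among 7 tested marginal zone and B-1 genes 0 passed with the same 3 tools (1 at an unadjusted p under 0.05 with each). The 12 immunoglobulin constant region genes on the list were not analysed here.

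Markers of the other lymphocytes did not separate the genotypes by the adjusted threshold. Of 13 tested T cell genes 0 passed with any of the 3 tools (1 at an unadjusted p under 0.05 with each), and their summed level was 782 to 939 CPM in wildtype, against 752 to 931 CPM in APOE-KO. Of 6 tested NK cell genes 0 passed with edgeR, DESeq2 or limma-voom (2, 1 and 2 at an unadjusted p under 0.05), with a median log2 fold change of -0.95 on sums of 76.0 to 266 and 35.1 to 170 CPM. In the stromal list 1 of 8 tested genes passed with edgeR. Log2 fold changes in that list were positive for 2 genes and negative for 6 (median -0.34). The gene that passed was Cxcl13, the chemokine that draws B cells into follicles. Cxcl13 rose 2.30-fold from 21.8 ± 4.84 to 50.3 ± 13.1 CPM (SD, n = 6 each; adjusted p = 0.00219, edgeR), with no overlap of the groups. Its receptor gene on B cells, Cxcr5, had 20.3 ± 3.97 and 21.0 ± 6.25 CPM (adjusted p = 0.972).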

How the data were processed

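Per the submitters' processing notes the authors' tools were featureCounts 1.5.1, STAR 2.7.8a, DESeq2 1.4 and R 4.1.0, with build mm10, and per the labels' protocols the Lexogen 3' FWD kit. The deposited table holds raw read counts per gene symbol. The table came with strand setting, annotation and handling of multi-mapping reads not given in the sources used here. All 12 columns matched a sample by its description, and the genotype label set the groups.

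The test was edgeR 4.0.16 in R 4.3.3 (filterByExpr, TMM, glmQLFit and glmQLFTest on genotype, Benjamini-Hochberg over 10714 tested genes, threshold 0.05). The SE of a fold change comes from the F statistic (size of log2 fold change over root F). Alternatives were RLE and upper-quartile scaling, Rn45s removed, no filter, a filter of 5 CPM in 6 libraries, robust dispersion, a replicate block, DESeq2 1.42.0, limma-voom (limma 3.58.1), 3 libraries left out together, and each library left out in turn. Correlations used log2 CPM with a prior count of 2. In 3 simulations of 10714 genes, 14.9%, 55.7% and 77.8% of genes changed 1.5-fold, 2-fold and 3-fold were recovered, and 4.52% of calls were false. Within a group, every pair of libraries differed by more than sampling noise (chi-square per degree of freedom at least 6.84 over 30 pairs).

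The members, lists and tests were chosen with earlier results of these data known. The rule for named genes, not all of which are printed, took the members, Apoe, Itgax, Rn45s, genes of each list that passed or had its 3 smallest p, and the 10 genes most like the members. Others named for their role (Cr2, Lyn, Syk, Btk, Blnk, Jchain, Cxcr5) were picked after their values were seen.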

Additional observations from a re-analysis of the deposited data

Results flagged for a closer look

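In groups of 6 libraries, a library was singled out where its gap to the nearest other value exceeded 0.625 of the group's range, which chance does in about 1 in 20 groups. This was applied to 34 groups, and 2 were singled out, both by wildtype library 3. Its Cd22 level of 81.16 CPM stood above the other wildtype libraries, at 46.7 to 59.4 CPM. Its Ebf1 level of 12.07 CPM stood below the others, at 32.3 to 39.3 CPM. The library had the highest total, 4898360 counts, and the lowest Rn45s share, 2.71%. Their part in these values was not tested.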

How the results depend on the processing

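The count of 0 changed B cell identity genes held under all 10 other settings and the 12 fits without 1 library. Of 132 member fold changes under these settings, 125 kept their sign, 7 changed it and 0 passed the threshold. Without the 3 libraries that stood apart the log2 fold change was -0.0052 for Cd79a and -0.026 for Blk, and limma-voom gave 0.10 for Ebf1. Without 1 library it ran from -0.22 to 0.021 for Ebf1 (0.015 without wildtype 1, 0.0019 without wildtype 5, 0.021 without APOE-KO 3 and 0.0052 without APOE-KO 6), 0.07 to 0.51 for Cd79a, 0.08 to 0.30 for Blk, -0.23 to -0.08 for Cd79b, -0.54 to -0.31 for Cd22 and -0.52 to -0.32 for Ms4a1. Over all genes 160 passed, 297 with DESeq2, 100 with a replicate block, and 99 (without APOE-KO 3) to 230 (without wildtype 3) without 1 library. The 8 other B lineage lists had 4 changed genes, 7 with DESeq2, 2 with limma-voom, 1 with the replicate block, 2 without the 3 libraries, and 1 to 5 without 1 library; this count was added after the data were seen. Over every list but the members it was 22, and 16 to 27 without 1 library. The difference in the log2 ratio to dendritic genes was -0.20, -0.37 against Itgax and -0.93 against mature dendritic genes, -0.13 with the mean of log2 CPM in place of sums, and -0.26 to -0.16 without 1 library. That of the log2 sum was -0.25, and -0.30 to -0.22. Mean pairwise r was 0.06, and 0.03 to 0.13. The cause of these differences was not tested. Same-numbered libraries correlated at -0.08 to 0.02 over genes, with 0 of 6 wildtype libraries most like their own number, so the numbers give no sign of pairing. Depth limits Pax5 and Cd79a. In the simulations over all tested genes, 14.9% of those changed 1.5-fold were recovered. The count of 0 changed members therefore does not exclude changes of the size fitted for Cd22 and Ms4a1.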
